A study of Mus musculus with 12 samples.

Results

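Integrins and cadherins are the adhesion receptors that hold cells to their matrix, to the vessel wall and to each other. The genes described here are the 48 of 33531 gene symbols in the expression table that are named Itga, Itgb or Cdh with a number or a single letter. They comprise 18 alpha integrin genes, 8 beta integrin genes and 22 Cdh genes. The Cdh symbols include the classical cadherins, such as Cdh1, Cdh2 and Cdh5, and also relatives outside that class, such as the membrane-anchored Cdh13, so the set is wider than classical cadherins.

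RNA was sequenced from arteries of mouse embryos at embryonic day 11.5, when blood-forming cells bud in clusters from the artery wall. All embryos came from Tg(Ly6a-GFP) males crossed to females of the C57BL/6 x 129S1/SVImJ F1 background, so every population carries the same reporter transgene, in which GFP marks activity of the Ly6a (Sca-1) gene. The dorsal aorta, umbilical arteries and vitelline arteries of 122 embryos were dissociated and sorted. Hematopoietic cluster cells (HC) were positive for CD31, CD144, ESAM and c-Kit and were sorted as GFP+ (53000 cells) or GFP- (413000 cells). Endothelial cells (EC) were positive for CD31, CD144 and ESAM, negative for c-Kit, and also sorted as GFP+ (377000 cells) or GFP- (791000 cells). Each population gave 3 pools of cells from many embryos, so there are 12 libraries and no value for a single embryo. CD144 is the product of Cdh5, which means that every population was selected for VE-cadherin protein on its surface. The GFP gate divides cells by a reporter and is not a direct measure of stem cell function.

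Values are FPKM, fragments scaled to transcript length and library size, so levels of different genes can be compared per length. Libraries had summed FPKM of 555675 to 691948, with 12147 to 12779 genes at 1 FPKM or more, and the number of reads per library is unknown. The 13278 genes with 1 FPKM or more in at least 3 libraries were tested with limma on log2(FPKM + 1). A gene is called higher or lower where the Benjamini-Hochberg adjusted p over all tested genes is below 0.05. The summed level of 7 hematopoietic genes, Ptprc, Kit and Runx1 among them, was 150 to 183 FPKM in HC GFP+, 47.4 to 69.4 in HC GFP-, 20.2 to 27 in EC GFP+ and 14.5 to 21.8 in EC GFP-. The summed level of 10 endothelial genes, Pecam1 and Kdr among them, was 2352 to 2681, 1883 to 2542, 3476 to 3696 and 2175 to 2811 FPKM in the same order of populations. Erythroid genes, globins among them, summed to 821 to 1137, 6230 to 9551, 931 to 2372 and 3288 to 7629 FPKM, granulocyte genes to 29.9 to 44, 9.44 to 13.2, 0.976 to 7.33 and 3.54 to 10.4 FPKM, and neural genes to at most 13.1 FPKM.

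An integrin is a pair of one alpha and one beta chain that spans the membrane. Outside the cell the pair binds matrix proteins such as fibronectin, laminins and collagens, or receptors on other cells. Inside the cell, talins and kindlins switch it on and couple it to actin. A cadherin binds the same cadherin on the neighbouring cell in the presence of calcium, and catenins tie its tail to actin. In arteries VE-cadherin holds the endothelial sheet together, while integrin alpha-IIb (CD41, the product of Itga2b) appears on early blood progenitors of the embryo and later on megakaryocytes and platelets.

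Of the 48 genes, 28 passed the filter for testing (12 alpha, 5 beta and 11 Cdh genes), and 14 of them were called in at least 1 comparison. Between EC GFP+ and EC GFP- cells, 7 genes were higher and 1 was lower, 8 of 28, while 13.5% of all tested genes were called in that comparison (6.96% higher and 6.51% lower). Between HC GFP+ and EC GFP+ cells, 4 were higher and 8 were lower in HC, 12 of 28, with a background of 14.3% (8.21% higher and 6.09% lower). Between HC GFP- and EC GFP- cells, 3 were higher and 1 was lower in HC, 4 of 28, with a background of 4.29% (2.36% higher and 1.93% lower). Between HC GFP+ and HC GFP- cells only Itga4 was called, 1 of 28, with a background of 4.26% (2.98% higher and 1.28% lower), so the share of called genes in that comparison was near the background. The EC GFP+ libraries enter both the EC comparison and the HC against EC comparison among GFP+ cells, so calls shared by the 2 are not independent of each other.

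Groups whose 3 libraries all lay on one side of the other group's were counted apart from the test. In EC, 11 of the 28 genes were higher in every GFP+ library than in any GFP- library and 2 were lower, against 14.8% and 16.7% of all tested genes. Between HC GFP+ and EC GFP+, 5 were higher and 11 lower without overlap, against 19.6% and 13.8%. Between HC GFP- and EC GFP-, 6 were higher and 2 lower, against 13.4% and 10.4%. Between HC GFP+ and HC GFP-, 7 were higher and 2 lower, against 13% and 10.5%.

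Per length, a few genes made up most of each family in every library. Itga6, which encodes the alpha-6 chain of laminin receptors, held 44.4 to 49.5% of the summed alpha integrin FPKM in HC GFP+, 49.3 to 50.7% in HC GFP-, 38.7 to 41.7% in EC GFP+ and 44.7 to 48.6% in EC GFP-. Itga5, the alpha chain of the fibronectin receptor, came next with 20.9 to 22.6%, 20.4 to 21.3%, 28.7 to 32.1% and 23 to 26.3% in the same order. Itgb1, the common partner of most alpha chains, held 86.8 to 96.2% of the summed beta integrin FPKM over the 12 libraries. Cdh5 held 88.6 to 92.1% of the summed Cdh FPKM in HC GFP+, 83 to 90.7% in HC GFP-, 91.6 to 93% in EC GFP+ and 85.1 to 91.1% in EC GFP-. The cluster cells carried the same leading integrin and cadherin transcripts per length as the endothelium.

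**Figure D1:**
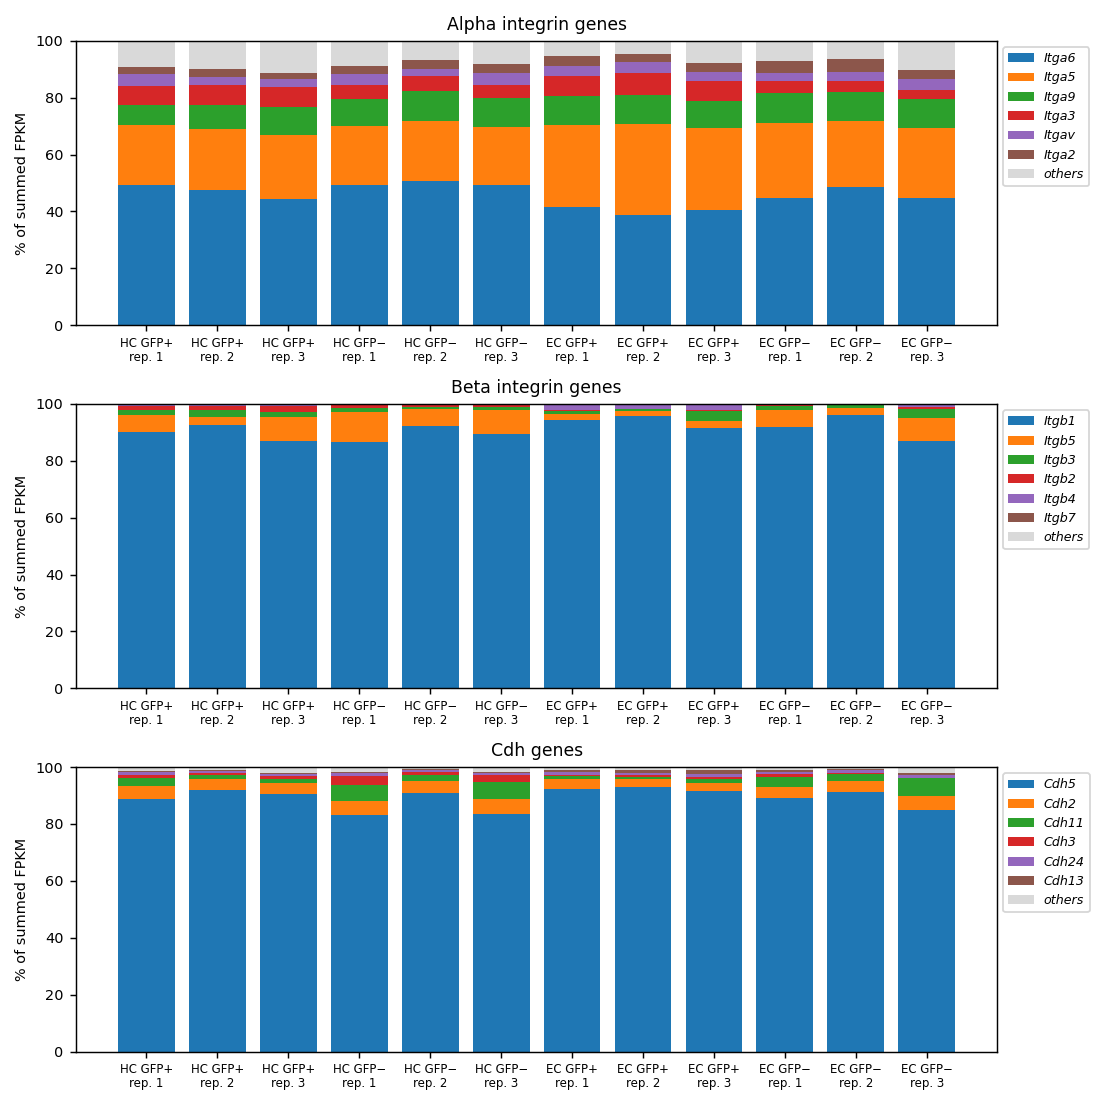
Stacked bars give each gene's share, in % of summed FPKM, of the alpha integrin, beta integrin and Cdh genes in each of the 12 libraries. Itga6 and Itga5 lead the alpha genes, Itgb1 the beta genes (86.8 to 96.2%) and Cdh5 the Cdh genes (83 to 93%) in every library.

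Itga3, Itga5, Itgb1 and Itgb4, genes of laminin and fibronectin receptors, were higher in EC GFP+ than in EC GFP- cells. Itga3, which pairs with beta-1 to bind laminins, had 30.7, 31.7 and 30.4 FPKM in EC GFP+ libraries, against 15.1, 13.3 and 9.79 FPKM in EC GFP- libraries. The EC groups did not overlap, and the difference was 1.24 ± 0.14 on the log2 scale (SE, adjusted p = 0.000309, limma). In the cluster cells Itga3 had 24.5, 25.7 and 24.2 FPKM in HC GFP+ libraries, against 15.2, 19.8 and 14.8 FPKM in HC GFP- libraries. Those groups did not overlap either, but the difference of 0.56 on the log2 scale missed the threshold (adjusted p = 0.0524). It passed when 1 library was left out, HC GFP- replicate 2 (adjusted p = 0.0314), EC GFP- replicate 1 (0.0419) or EC GFP- replicate 3 (0.0139), and with a replicate block (0.0395), although the replicate numbers do not pair the libraries. HC GFP+ and EC GFP+ cells differed by -0.31 on the log2 scale for Itga3 (adjusted p = 0.192, and 0.0347 where only those groups were fitted).

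The fibronectin receptor genes showed the same order of the EC groups. Itga5 had 124, 131 and 123 FPKM in EC GFP+ libraries, against 94.5, 85.6 and 73.7 FPKM in EC GFP- libraries, a difference of 0.58 ± 0.10 on the log2 scale (adjusted p = 0.00286). Itgb1 had 418, 405 and 393 FPKM in EC GFP+ libraries, against 290, 324 and 270 FPKM in EC GFP- libraries, a difference of 0.46 ± 0.08 (adjusted p = 0.00355). For both genes every EC GFP+ library lay above every other library of the study. HC GFP+ libraries had 76.0, 77.1 and 78.4 FPKM of Itga5 and 311, 309 and 282 FPKM of Itgb1. Against EC GFP+, HC GFP+ cells were lower by -0.70 ± 0.10 for Itga5 (adjusted p = 0.000883) and by -0.43 ± 0.08 for Itgb1 (adjusted p = 0.00446) on the log2 scale. HC GFP- libraries had 63.9, 77.5 and 66.6 FPKM of Itga5 and 254, 265 and 284 FPKM of Itgb1, ranges that overlap those of HC GFP+ libraries. The ratio of Itga5 to Itgb1 FPKM averaged 0.257 in HC GFP+, 0.26 in HC GFP-, 0.311 in EC GFP+ and 0.288 in EC GFP-.

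Itgb4, the beta chain that pairs with alpha-6 in hemidesmosomes, showed the largest fold among the 8 calls in EC. It had 8.52, 6.95 and 8.72 FPKM in EC GFP+ libraries, against 0.471, 0.305 and 2.66 FPKM in EC GFP- libraries, a difference of 2.24 ± 0.32 on the log2(FPKM + 1) scale (adjusted p = 0.00121). EC GFP- replicate 3 stood above the other EC GFP- libraries but far below each EC GFP+ library. HC GFP+ libraries had 1.40, 1.69 and 1.18 FPKM and HC GFP- libraries 0.546, 0.181 and 0.383 FPKM of Itgb4, with no overlap. The cluster cell difference of 0.83 missed the threshold (adjusted p = 0.211), and HC GFP+ was lower than EC GFP+ by -1.90 ± 0.32 on the log2 scale (adjusted p = 0.00288). Without EC GFP- replicate 3, Itgb4 was higher in HC GFP+ than in HC GFP- (adjusted p = 0.0161). Itga6, its partner, had means of 169 ± 13.2, 166 ± 16.2, 170 ± 11.1 and 159 ± 23.9 FPKM in HC GFP+, HC GFP-, EC GFP+ and EC GFP- (SD, n = 3 each) and was called in none of the 4 comparisons of populations.

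Other genes of matrix receptors followed different orders. Itga1, a collagen-binding alpha chain, was lower in HC than in EC of either GFP class. It had 4.17, 4.23 and 2.69 FPKM in HC GFP+ libraries, against 8.41, 6.33 and 7.42 FPKM in EC GFP+ libraries, a difference of -0.85 ± 0.15 on the log2 scale (adjusted p = 0.0041). Among GFP- cells it had 5.17, 5.52 and 5.84 FPKM in HC libraries, against 9.13, 10.1 and 8.20 FPKM in EC libraries, a difference of -0.64 ± 0.15 (adjusted p = 0.0428). In both comparisons the groups did not overlap. The GFP- call was lost without any 1 GFP- library, replicate 1 of HC GFP+, or replicate 1 or 3 of EC GFP+, with differences of -0.71 to -0.57 and adjusted p of 0.0557 to 0.178. In all it was lost in 16 of 22 alternatives, also with no filter, a stricter filter (a mean of at least 5 FPKM), equal-sum scaling, a replicate block, a mesenchyme or megakaryocyte marker score as covariate, or only the groups compared (adjusted p of 0.051 to 0.113).

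Itga9, an alpha chain that binds tenascin and other ligands with beta-1, had 25.7, 31.1 and 34.1 FPKM in HC GFP+ libraries, against 43.3, 41.7 and 39.1 FPKM in EC GFP+ libraries. The difference of -0.44 ± 0.13 on the log2 scale was called (adjusted p = 0.0379). That call was lost without any 1 EC GFP+ library, replicate 1 or 2 of HC GFP+, replicate 3 of HC GFP-, or replicate 1 of EC GFP- (adjusted p of 0.0502 to 0.136), and with no filter (0.0621) or only the groups compared (0.0507). The collagen receptor gene Itga2, the RGD-binding chain Itgav and Itga8, whose ligand is nephronectin, were called in no comparison. Their means lay between 2.66 FPKM (Itga8 in EC GFP+) and 15.2 FPKM (Itgav in EC GFP+). Itgb5, a partner of alpha-v, averaged 18.9 ± 8.78 FPKM in HC GFP+, 24.6 ± 7.46 in HC GFP-, 9.48 ± 1.72 in EC GFP+ and 17.2 ± 8.65 in EC GFP-, with spreads too wide for a call.

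**Figure D2:**
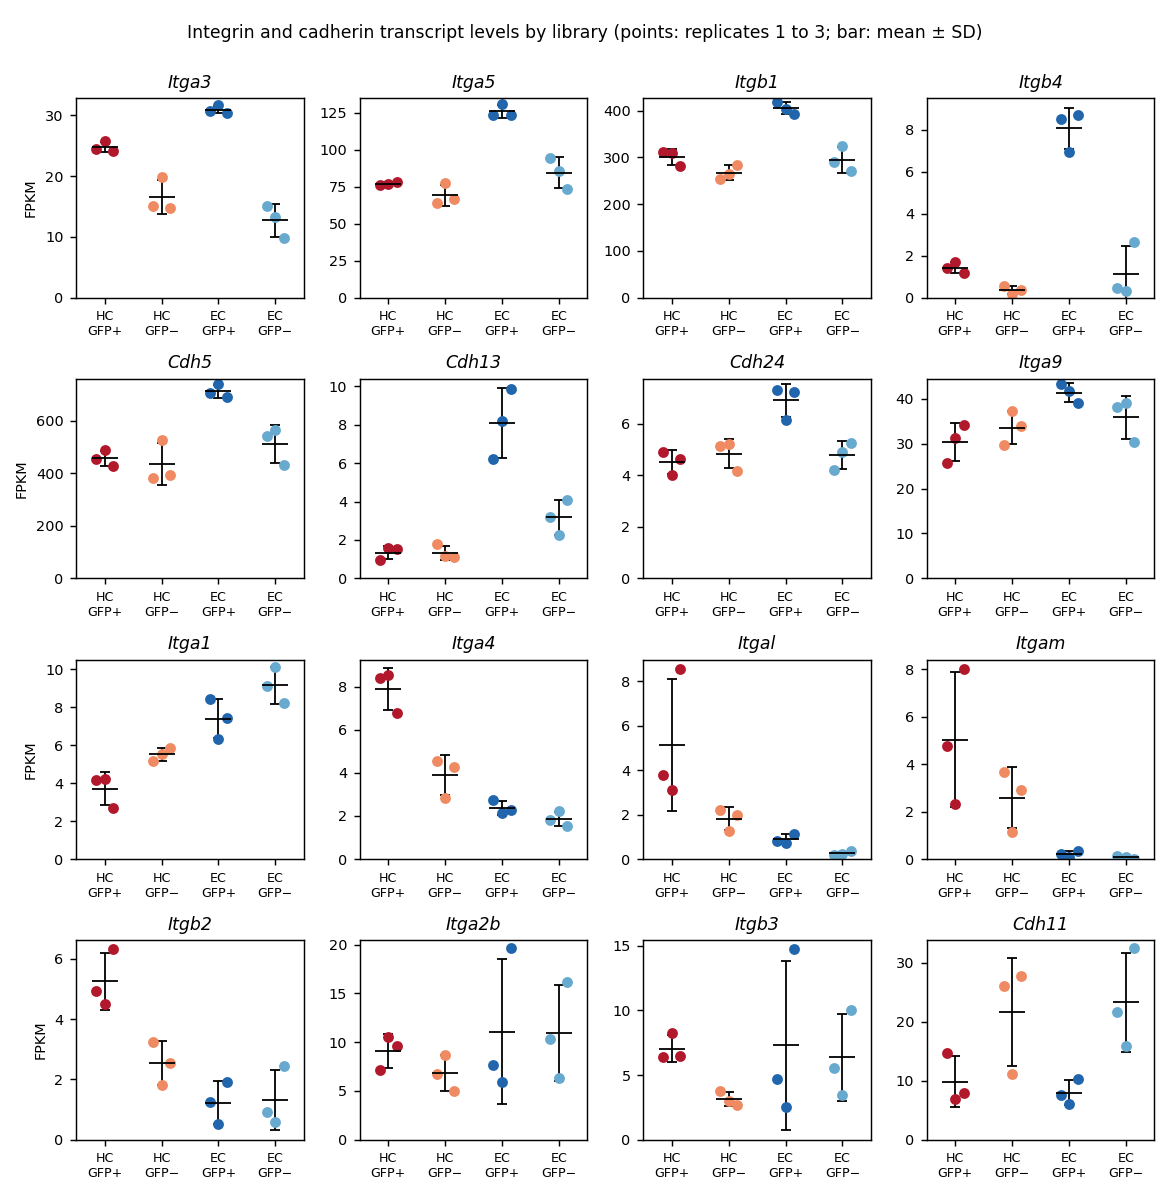
FPKM of 16 integrin and cadherin genes in HC GFP+, HC GFP-, EC GFP+ and EC GFP- cells, 1 point per library with the mean and SD (n = 3). Itga3, Itga5, Itgb1, Itgb4, Cdh5 and Cdh13 are highest in EC GFP+, Itga4, Itgal, Itgam and Itgb2 in HC GFP+, and Itga2b and Itgb3 spread widely within the EC groups.

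The start regions of Itga3, Itga5 and Itgb1, genes of fibronectin and laminin receptors, are shown because they were higher together in EC GFP+ cells. The windows run from 250 bases before to 50 after a RefSeq start site on GRCm38.p6, 5′ to 3′ on the gene's own strand, and were matched by symbol. Capitals mark matches to 6-letter words of ETS (CCGGAA or CAGGAA), RUNX (TGTGGT or TGCGGT) or GATA factors (AGATAA or AGATAG, or with T as the first letter TGATAA or TGATAG) on either strand, so a word on the opposite strand appears as its reverse complement.
Itga3, chr11:95076665-95076964, minus strand: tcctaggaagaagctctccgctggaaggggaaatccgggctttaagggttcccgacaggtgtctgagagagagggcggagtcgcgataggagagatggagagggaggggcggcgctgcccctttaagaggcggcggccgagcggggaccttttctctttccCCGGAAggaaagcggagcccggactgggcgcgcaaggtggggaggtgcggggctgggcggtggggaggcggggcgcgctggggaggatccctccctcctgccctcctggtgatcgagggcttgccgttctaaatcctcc
Itga5, chr15:103366742-103367041, minus strand: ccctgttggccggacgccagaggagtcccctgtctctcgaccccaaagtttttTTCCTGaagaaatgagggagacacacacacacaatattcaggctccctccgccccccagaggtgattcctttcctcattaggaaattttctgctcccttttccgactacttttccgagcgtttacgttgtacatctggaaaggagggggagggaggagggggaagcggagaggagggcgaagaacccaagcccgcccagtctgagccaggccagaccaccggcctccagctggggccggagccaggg
Itgb1, chr8:128685404-128685703, plus strand: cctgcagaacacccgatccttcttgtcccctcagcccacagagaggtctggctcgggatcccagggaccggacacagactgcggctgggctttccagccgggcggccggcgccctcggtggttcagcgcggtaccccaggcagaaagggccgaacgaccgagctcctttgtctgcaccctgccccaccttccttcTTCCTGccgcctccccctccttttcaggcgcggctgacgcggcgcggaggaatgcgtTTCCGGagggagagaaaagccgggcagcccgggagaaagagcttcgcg
The Itga3 window held CCGGAA at position -89 from the start. RefSeq lists another Itga3 start, whose window is not printed and held the RUNX word TGTGGT at -73 and the ETS word CAGGAA on the opposite strand at 35. The Itga5 window held CAGGAA on the opposite strand at -197. The Itgb1 window held CAGGAA at -55 and CCGGAA at 3, both on the opposite strand. The table has windows for 30 of the 48 genes, 34 windows in all. An ETS word was in 13 of the 34 (38.2%), against 41.4% of 32851 windows of all genes. A RUNX word was in 7 (20.6%), against 22.4%, and a GATA word in 6 (17.6%), against 29.8%. A match is a run of letters and was not tested for binding.

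Itga4, Itgal, Itgam and Itgb2, genes of leukocyte integrins, were higher in HC GFP+ than in EC GFP+ cells. Itga4, the alpha chain of the VCAM-1 and fibronectin receptor alpha-4 beta-1, had 8.40, 8.53 and 6.77 FPKM in HC GFP+ libraries, against 4.55, 2.82 and 4.28 FPKM in HC GFP- libraries. It was the only one of the 28 tested genes called between the HC populations, with a difference of 0.88 ± 0.17 on the log2 scale (adjusted p = 0.0134) and no overlap. A further 7 of the 28 had an unadjusted p under 0.05 in that comparison. The share of all tested genes at that cut was not counted, so nothing is read from this count. The call was lost without HC GFP+ replicate 1 (0.84, adjusted p = 0.0549) and where only the HC libraries were fitted (adjusted p = 0.0551).

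In the endothelium Itga4 had 2.73, 2.12 and 2.28 FPKM in EC GFP+ libraries and 1.79, 2.21 and 1.54 FPKM in EC GFP- libraries, and these groups overlapped. HC GFP+ exceeded EC GFP+ by 1.40 ± 0.17 on the log2 scale (adjusted p = 0.000443), and HC GFP- exceeded EC GFP- by 0.77 ± 0.17 (adjusted p = 0.0308). The second call was lost without replicate 1 or 3 of either GFP- population, with differences of 0.66 to 0.75 and adjusted p of 0.0898 to 0.154, and also with the megakaryocyte covariate (0.081), replicate 3 of HC GFP+, EC GFP+ and EC GFP- left out together (0.107) or only the groups compared (0.106). The ratio of Itga4 to Itgb1 FPKM was 0.0262 ± 0.00192 in HC GFP+, 0.0145 ± 0.00365 in HC GFP-, 0.00585 ± 0.000651 in EC GFP+ and 0.00624 ± 0.000554 in EC GFP- (SD, n = 3 each). Itgb7, the other beta chain of alpha-4, did not pass the filter and had at most 1.11 FPKM, in HC GFP+ replicate 3. Vcam1, which encodes the counter-receptor of alpha-4 beta-1, had 1.38 to 6.12 FPKM over the EC libraries.

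Itgal encodes the alpha chain of LFA-1, Itgam that of Mac-1 (CD11b), and Itgb2 the beta chain they share. Itgal had 3.76, 3.09 and 8.54 FPKM in HC GFP+ libraries, against 0.815, 0.742 and 1.13 FPKM in EC GFP+ libraries, a difference of 1.59 ± 0.28 on the log2 scale (adjusted p = 0.00352). Itgam had 4.78, 2.32 and 7.99 FPKM in HC GFP+ libraries, against 0.192, 0.0817 and 0.344 FPKM in EC GFP+ libraries, a difference of 2.21 ± 0.35 (adjusted p = 0.00202). Both genes separated the populations without overlap, and HC GFP+ replicate 3 was the highest library for each. Itgam reached 1 FPKM in 6 libraries, all of them HC. Itgal reached it in 7, of which EC GFP+ replicate 3 was the only EC library. Both passed the filter through the HC libraries, so their calls over EC cells, also among GFP- cells, are not independent of the filter. Itgb2 had 4.95, 4.49 and 6.31 FPKM in HC GFP+ libraries, against 1.24, 0.512 and 1.93 FPKM in EC GFP+ libraries, a difference of 1.53 ± 0.31 (adjusted p = 0.00781). Itgal differed between HC GFP+ and HC GFP- cells by 1.03 (adjusted p = 0.0697), Itgam by 0.71 (0.336) and Itgb2 by 0.83 (0.196), none past the threshold. Without HC GFP+ replicate 2 the Itgal difference was 1.27 and passed (adjusted p = 0.0409), as it did with a replicate block (0.0385). The Itgb2 difference passed with the mesenchyme covariate (0.0281). With a pseudocount of 0.1 the Itgam difference between HC GFP+ and EC GFP+ cells was 3.99, since low values weigh more on that scale.

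Among GFP- cells the pattern of the alpha chains was similar. Itgam had 3.65, 1.16 and 2.92 FPKM in HC libraries, against 0.132, 0.0955 and 0.00548 FPKM in EC libraries, a difference of 1.66 ± 0.35 on the log2 scale (adjusted p = 0.0266). Itgal had 2.22, 1.26 and 1.99 FPKM in HC libraries, against 0.199, 0.213 and 0.346 FPKM in EC libraries, a difference of 1.16 ± 0.28 (adjusted p = 0.0434). Itgb2 had 3.25, 1.82 and 2.56 FPKM in HC GFP- libraries, against 0.908, 0.575 and 2.43 FPKM in EC GFP- libraries. Those Itgb2 groups overlapped, and the difference of 0.68 missed the threshold (adjusted p = 0.264), which it passed with the megakaryocyte covariate (0.0409). The Itgam call was lost without replicate 1 or 3 of either GFP- population (1.43 to 1.70, adjusted p of 0.0705 to 0.131), with the megakaryocyte covariate (0.0548) or with those 3 libraries left out together (0.0606). The Itgal call was lost without replicate 1 of HC GFP+, replicate 1 or 3 of HC GFP-, or any 1 EC library (1.05 to 1.21, adjusted p of 0.0578 to 0.182), with quantile normalization (0.0706), or with the mesenchyme (0.0512) or megakaryocyte covariate (0.0686). At a pseudocount of 0.1 these differences were 3.85 for Itgam and 2.43 for Itgal, and with no filter on low values all 4 calls of the GFP- comparison missed the threshold, with adjusted p of 0.0585 for Itgam, 0.0691 for Itga4, 0.0843 for Itga1 and 0.0844 for Itgal.

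Macrophage markers were also higher in HC than in EC cells, as Itgam and Itgal were. The summed level of 14 macrophage genes, Csf1r, C1qa and Cx3cr1 among them, was 896, 330 and 1828 FPKM in HC GFP+, 979, 305 and 794 FPKM in HC GFP-, 20.1, 18.9 and 42.4 FPKM in EC GFP+ and 16.0, 19.4 and 20.4 FPKM in EC GFP-. Of the 13 that passed the filter, 13 were higher in HC GFP+ than in EC GFP+ and 12 were higher in HC GFP- than in EC GFP-. Over all tested genes 8.21% and 2.36% were called higher in these comparisons. A gene can pass the filter through the HC libraries alone, so these macrophage counts are not independent of the filter. Cd163, a marker of mature tissue macrophages, had at most 0.223 FPKM. Within each HC population the library with the highest macrophage sum also had the highest Itgam, Itgal and Itgb2, and the library with the lowest sum had the lowest. Itga4 followed that order in HC GFP- cells, with 4.55, 2.82 and 4.28 FPKM, but not in HC GFP+ cells. There it was lowest (6.77 FPKM) in the library with the highest macrophage sum and highest (8.53 FPKM) in the one with the lowest. The 13 genes differed between HC GFP+ and HC GFP- cells by a median of 0.37 on the log2 scale. The part of macrophages in the differences of Itgam, Itgal and Itgb2 was not tested. In pooled cells, fewer cells of a type and less RNA per cell cannot be told apart.

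The start regions of Itga4 and Itgam are shown as 2 members called higher in HC in both GFP classes, as Itgal was, in the same format and with the same words in capitals.
Itga4, chr2:79255176-79255475, plus strand: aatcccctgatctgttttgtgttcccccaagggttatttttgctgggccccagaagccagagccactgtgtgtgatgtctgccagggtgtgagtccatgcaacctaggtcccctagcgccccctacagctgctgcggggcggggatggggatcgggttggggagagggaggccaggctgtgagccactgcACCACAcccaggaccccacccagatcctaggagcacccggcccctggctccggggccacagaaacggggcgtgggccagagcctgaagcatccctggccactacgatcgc
Itgam, chr7:128062390-128062689, plus strand: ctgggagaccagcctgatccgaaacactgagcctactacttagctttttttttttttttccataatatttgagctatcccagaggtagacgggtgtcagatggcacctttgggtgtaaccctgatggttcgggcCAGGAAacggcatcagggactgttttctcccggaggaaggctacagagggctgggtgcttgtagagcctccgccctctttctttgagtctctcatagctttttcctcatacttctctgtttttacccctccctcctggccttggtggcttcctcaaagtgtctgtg
The Itga4 window held the RUNX word TGTGGT on the opposite strand at -60 and no ETS or GATA word. The Itgam window held the ETS word CAGGAA at -116 and no RUNX or GATA word.

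The platelet integrin genes Itga2b and Itgb3 were not called between HC and EC cells of either GFP class. Itga2b, a marker of early hematopoietic cells, had 7.12, 10.6 and 9.56 FPKM in HC GFP+ libraries, 6.70, 8.70 and 4.999 in HC GFP- libraries, 7.65, 5.95 and 19.6 in EC GFP+ libraries and 10.3, 6.31 and 16.1 in EC GFP- libraries. The highest values were in EC libraries, both from replicate 3. On the log2 scale, HC GFP+ and EC GFP+ cells differed by -0.11 (95% confidence interval -0.98 to 0.76, adjusted p = 0.896), and HC GFP- and EC GFP- cells by -0.55 (adjusted p = 0.503). The GFP+ and GFP- cells differed by 0.38 in HC (adjusted p = 0.695) and by -0.06 in EC (adjusted p = 0.94). As a transcript, Itga2b was therefore not shown to be higher in the HC populations, and the intervals are wide.

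Itgb3, the partner of alpha-IIb and of alpha-v, had 6.39, 8.24 and 6.46 FPKM in HC GFP+ libraries, against 3.74, 2.99 and 2.72 FPKM in HC GFP- libraries. These groups did not overlap, yet the difference of 0.95 ± 0.46 on the log2 scale missed the threshold (adjusted p = 0.328), since the spread is shared by all populations. In the endothelium Itgb3 had 4.68, 2.50 and 14.7 FPKM in EC GFP+ libraries and 5.54, 3.48 and 10.1 FPKM in EC GFP- libraries, with the highest value again in replicate 3 of each. Where only the HC libraries were fitted the HC difference passed (adjusted p = 0.0271), and so did it with a megakaryocyte score as a covariate (0.74, adjusted p = 0.00449). The ratio of Itga2b to Itgb3 FPKM was 1.29 ± 0.184 in HC GFP+, 2.18 ± 0.635 in HC GFP-, 1.78 ± 0.538 in EC GFP+ and 1.76 ± 0.14 in EC GFP- (SD, n = 3 each).

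Megakaryocyte and platelet markers were high in those same EC libraries. The summed level of 12 such genes, Pf4, Ppbp and Gp9 among them and Itga2b not included, was 184, 143 and 305 FPKM in HC GFP+, 272, 165 and 207 FPKM in HC GFP-, 107, 62.5 and 289 FPKM in EC GFP+ and 204, 151 and 357 FPKM in EC GFP-. Replicate 3 of each EC population had the highest sum of its group, and replicate 2 the lowest, which is also the order of Itga2b and Itgb3 in the EC libraries. In both HC populations the sum was lowest in replicate 2, where Itga2b was highest (10.6 and 8.70 FPKM). With the megakaryocyte score as a covariate, the Itga2b difference between HC GFP- and EC GFP- was 0.01, against -0.55 without it. Without EC GFP+ replicate 3 the difference between HC GFP+ and EC GFP+ was 0.36 (adjusted p = 0.55). The Itga2b window is shown as that of the family's marker of early blood cells.
Itga2b, chr11:102469834-102470133, minus strand: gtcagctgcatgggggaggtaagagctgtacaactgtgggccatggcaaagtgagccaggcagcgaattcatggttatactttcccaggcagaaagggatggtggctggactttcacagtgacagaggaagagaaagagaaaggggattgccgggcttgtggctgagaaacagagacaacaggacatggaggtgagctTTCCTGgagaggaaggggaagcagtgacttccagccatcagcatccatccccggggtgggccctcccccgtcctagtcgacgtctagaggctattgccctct
It held the ETS word CAGGAA on the opposite strand at -52 and no RUNX or GATA word.

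**Figure D3:**
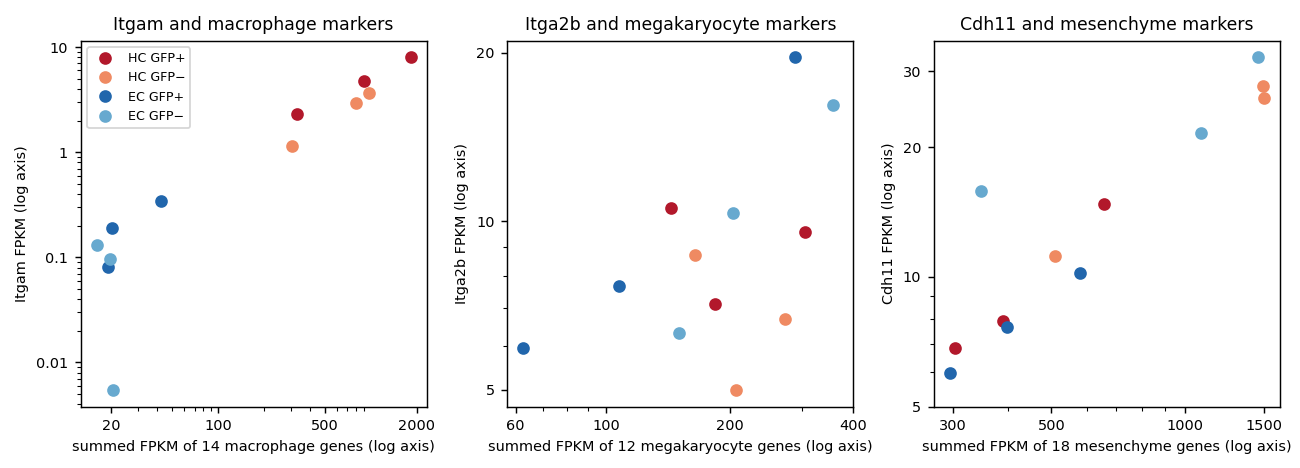
FPKM of Itgam, Itga2b and Cdh11 (vertical, log axes) against the summed FPKM of 14 macrophage, 12 megakaryocyte and 18 mesenchyme genes (horizontal, log axes), 1 point per library. The 6 HC libraries lie at 305 to 1828 FPKM of macrophage genes and the EC libraries at 16.0 to 42.4, and Cdh11 is highest in libraries with the most mesenchyme RNA.

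Among the cadherins, Cdh5 was the most abundant in every library. It had 705, 740 and 693 FPKM in EC GFP+ libraries, against 543, 565 and 431 FPKM in EC GFP- libraries, a difference of 0.48 ± 0.13 on the log2 scale (adjusted p = 0.0326). HC GFP+ libraries had 454, 489 and 430 FPKM, lower than EC GFP+ by -0.64 ± 0.13 (adjusted p = 0.00776), with no overlap. HC GFP- libraries had 383, 527 and 395 FPKM, which spans the HC GFP+ values, and differed from EC GFP- by -0.24 (adjusted p = 0.346). Cells of each population were sorted for the Cdh5 product, so its presence in the cluster cells was part of the gate. The EC call was lost without any 1 EC library other than GFP- replicate 2 (0.36 to 0.53, adjusted p of 0.0543 to 0.112) and with a mesenchyme score as a covariate (0.29, adjusted p = 0.115). It was also lost with no filter (0.0684), the megakaryocyte covariate (0.0715), 3 libraries left out together (0.179) or only the groups compared (0.0569), and after quantile normalization the difference was 0.74.

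Cdh13 encodes T-cadherin, an adiponectin receptor held in the membrane by a lipid anchor. It had 6.21, 8.20 and 9.87 FPKM in EC GFP+ libraries, against 3.20, 2.25 and 4.06 FPKM in EC GFP- libraries, a difference of 1.13 ± 0.21 on the log2 scale (adjusted p = 0.00609). HC GFP+ libraries had 0.947, 1.58 and 1.51 FPKM, lower than EC GFP+ by -1.95 ± 0.21 (adjusted p = 0.000248). HC GFP- libraries had 1.77, 1.15 and 1.12 FPKM, so the HC populations overlapped at a level below every EC library. The GFP- difference of -0.82 missed the threshold (adjusted p = 0.0572) and passed without EC GFP- replicate 2 (-0.99, adjusted p = 0.0369). It also passed with a pseudocount of 0.1, quantile normalization or the mesenchyme covariate. Cdh13 had both the lowest adjusted p of the 12 calls between HC GFP+ and EC GFP+ and a call in EC that held in every alternative in which it was tested.

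Cdh24, a type II classical cadherin, had 7.33, 6.17 and 7.24 FPKM in EC GFP+ libraries, against 4.21, 4.90 and 5.27 FPKM in EC GFP- libraries, a difference of 0.45 ± 0.13 on the log2 scale (adjusted p = 0.0385). HC GFP+ libraries had 4.92, 4 and 4.62 FPKM, lower than EC GFP+ by -0.52 ± 0.13 (adjusted p = 0.0185). The EC call was lost without replicate 1 or 3 of EC GFP+, replicate 1 or 2 of EC GFP-, or replicate 1 of HC GFP- (adjusted p of 0.0532 to 0.124). In all it was lost in 11 of 22 alternatives, also with no filter, the stricter filter, a replicate block, the mesenchyme covariate, 3 libraries left out together or only the groups compared (adjusted p of 0.0577 to 0.134). The call between HC GFP+ and EC GFP+ was lost without replicate 2 of HC GFP+ or replicate 1 or 3 of EC GFP+ (adjusted p of 0.0616 to 0.0722) and with 3 libraries left out together (0.0989).

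Cdh11, a cadherin typical of mesenchymal cells, was the only one of the 28 tested genes called lower in EC GFP+ than in EC GFP- cells. It had 7.65, 5.97 and 10.2 FPKM in EC GFP+ libraries, against 21.6, 15.8 and 32.4 FPKM in EC GFP- libraries, a difference of -1.41 ± 0.37 on the log2 scale (adjusted p = 0.0307). In the cluster cells it had 14.7, 6.84 and 7.89 FPKM in HC GFP+ libraries, against 26.0, 11.2 and 27.7 FPKM in HC GFP- libraries. The difference of -1.04 missed the threshold (adjusted p = 0.177, limma) and passed with a replicate block (0.0453). The summed level of 18 mesenchyme genes, Pdgfra and Col1a1 among them, was 398, 295 and 580 FPKM in EC GFP+, against 1084, 347 and 1455 FPKM in EC GFP-, and 655, 303 and 389 FPKM in HC GFP+, against 1504, 509 and 1497 FPKM in HC GFP-. Of the 18, 1 was called in EC, and it was lower in GFP+ cells, near the 6.51% of all tested genes called lower there. With the mesenchyme score as a covariate, the Cdh11 difference in EC was -0.72 (adjusted p = 0.0213). Its call was lost without replicate 1 or 2 of EC GFP+ or replicate 1 or 3 of EC GFP- (-1.43 to -1.15, adjusted p of 0.0692 to 0.112). It was also lost with no filter (0.0686), with the megakaryocyte covariate (0.0616) and with 3 libraries left out together (0.14).

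The remaining tested cadherins were called in no comparison. Cdh2 (N-cadherin) averaged 20.1 ± 3.15 FPKM in HC GFP+, 25.1 ± 1.39 in HC GFP-, 22.4 ± 2.01 in EC GFP+ and 24.1 ± 0.365 in EC GFP- (SD, n = 3 each), the second most abundant Cdh transcript by mean. Cdh3 (P-cadherin) had 6.67, 3.16 and 3.89 FPKM in HC GFP+ libraries, 13.8, 5.75 and 11.4 in HC GFP-, 4.42, 5.24 and 6.02 in EC GFP+, and 7.67 and 2.94 in EC GFP- with replicate 3 listed at 0. Cdh1 (E-cadherin), typical of epithelia, had between 0.86 and 2.48 FPKM over the 12 libraries, while 11 epithelial genes summed to 34.6 to 64.1 FPKM in HC GFP+, 41.5 to 80 in HC GFP-, 51 to 60.7 in EC GFP+ and 28.6 to 92.2 in EC GFP-. Cdh4, Cdh10, Cdh23 and Cdh26 averaged below 2 FPKM in each population.

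**Figure D4:**
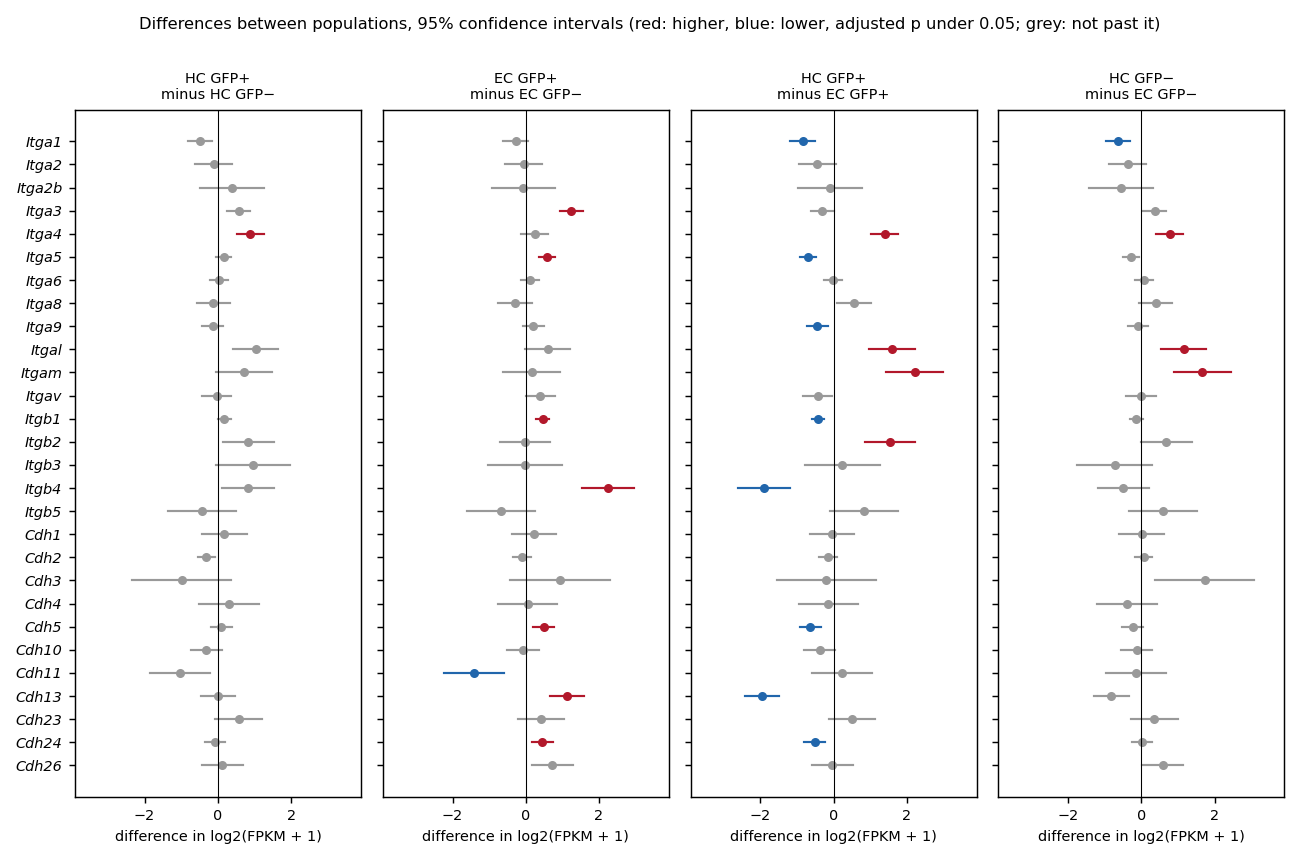
Difference in log2(FPKM + 1) with its 95% confidence interval for the 28 tested genes in HC GFP+ against HC GFP-, EC GFP+ against EC GFP-, HC GFP+ against EC GFP+ and HC GFP- against EC GFP-. Red and blue mark genes called higher and lower, 1 and 0, 7 and 1, 4 and 8, and 3 and 1 from left to right.

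Whether GFP status went with a different change in HC than in EC was tested directly as the difference between the GFP effects. In limma 0 of the 28 genes were called, with a background of 0.527% of all tested genes (0.188% higher and 0.339% lower). An unadjusted p under 0.05 was found for 8 of the 28. The share of all tested genes at that cut was not counted, so nothing is read from that number. The estimate was -0.67 for Itga3 (adjusted p = 0.202), -1.13 for Cdh13 (0.137), -0.42 for Itga5 (0.237), -0.40 for Cdh5 (0.444) and 0.63 for Itga4 (0.333) on the log2 scale. For Itgb4 it was -1.41 (adjusted p = 0.237), and without EC GFP- replicate 3 it was -1.88 and passed (adjusted p = 0.0111). Genes called in EC and not in HC are thus not shown to respond differently in the 2 cell types. The median difference over the 28 genes was 0.10 in HC GFP+ against HC GFP-, 0.22 in EC GFP+ against EC GFP-, -0.15 in HC GFP+ against EC GFP+ and 0.00 in HC GFP- against EC GFP-, beside 0.00, -0.03, 0.05 and 0.01 over all tested genes.

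The other 20 genes stayed too low to test. Of these, 16 were below 1 FPKM in every library. Among the integrins the highest FPKM in any library was 0.744 for Itga11, 0.609 for Itga10, 0.345 for Itgb8, 0.29 for Itga7 and Itgb6, 0.213 for Itgax and 0.143 for Itgae. Itgad was listed at 0 in 11 libraries and had 0.0638 FPKM in the other, HC GFP+ replicate 3. Among the cadherins it was 0.988 for Cdh16, a kidney cadherin, 0.616 for Cdh22, 0.515 for Cdh8, 0.403 for Cdh19, 0.19 for Cdh7, 0.125 for Cdh9 and Cdh12 and 0.108 for Cdh20. Itgb7, Cdh6, Cdh17 and Cdh18 reached 1 FPKM in 1 library each, with highest values of 1.11, 1.11, 1.005 and 1.45 FPKM. No gene of the 48 was at 0 in every library.

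Genes that work with these receptors were counted from lists chosen by function. Of 24 tested ligand genes, 7 were higher and 1 was lower in EC GFP+ than in EC GFP-, and 1 was higher and 14 were lower in HC GFP+ than in EC GFP+. Over all tested genes 6.96% were called higher and 6.51% lower in EC, and 8.21% higher and 6.09% lower in HC GFP+ against EC GFP+. The median difference was 0.30 and -0.56 on the log2 scale, beside -0.03 and 0.05 over all tested genes. Fn1 (fibronectin), the ligand of alpha-5 beta-1, had 361, 351 and 397 FPKM in EC GFP+ libraries, against 132, 110 and 117 FPKM in EC GFP- libraries, a difference of 1.62 ± 0.15 (adjusted p = 5.12e-05). In the cluster cells Fn1 had 160, 140 and 137 FPKM in HC GFP+ libraries, against 145, 94.9 and 143 FPKM in HC GFP- libraries, and these groups overlapped. HC GFP+ was lower than EC GFP+ by -1.34 ± 0.15 for Fn1 (adjusted p = 0.000248). Vwf, the von Willebrand factor that platelets bind, averaged 410 ± 27.4 FPKM in EC GFP+ and 48.9 ± 6.91 in EC GFP- (SD, n = 3 each), a difference of 3.05 ± 0.14 (adjusted p = 5.14e-07). It was also higher in HC GFP+ (174 ± 19.5 FPKM) than in HC GFP- (33.6 ± 6.19 FPKM), by 2.35 ± 0.14 (adjusted p = 6.59e-06).

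Further ligand genes differed by GFP status or by cell type. Madcam1, the ligand of alpha-4 beta-7, averaged 23.5 FPKM in EC GFP+ and 67.1 in EC GFP-, a difference of -1.48 ± 0.16 (adjusted p = 0.00016). It was also lower in HC GFP+ than in HC GFP- by -1.22 (adjusted p = 0.00133). Jam2, a junctional ligand of leukocyte integrins, was higher in GFP+ cells of both kinds, by 1.52 ± 0.11 in EC (adjusted p = 1.05e-05) and 1.21 in HC (adjusted p = 0.000146). Spp1 (osteopontin), a ligand that macrophages secrete, was the only ligand higher in HC GFP+ than in EC GFP+, with 12.7 ± 8.81 and 0.757 ± 0.378 FPKM (SD, n = 3 each) and a difference of 2.74 ± 0.44 (adjusted p = 0.0022). Its libraries were spread as the macrophage sums were, with 12.7, 3.96 and 21.6 FPKM in HC GFP+.

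Of 27 tested genes of the integrin adaptor and activation machinery, 7 were higher and 7 were lower in HC GFP+ than in EC GFP+ (8.21% and 6.09% of all tested genes), with a median of 0.00. The parvins, which link integrins to actin, split by cell type. Parvg, the blood cell form, had 6.20, 6.05 and 10.3 FPKM in HC GFP+ libraries, against 0.666, 0.691 and 1.24 FPKM in EC GFP+ libraries. The difference was 2.17 ± 0.23 (adjusted p = 0.000215, limma). Among EC libraries only EC GFP+ replicate 3 reached 1 FPKM, so Parvg passed the filter through the HC libraries. Its call is thus not independent of the filter. Parva, the widespread form, averaged 59.6 FPKM in HC GFP+ and 112 FPKM in EC GFP+, a difference of -0.90 ± 0.10 (adjusted p = 0.000282). Fermt3, the kindlin of blood cells, averaged 30.4 ± 11.7 FPKM in HC GFP+ and 6.96 ± 5.94 FPKM in EC GFP+ (SD, n = 3 each; 2.17 ± 0.55, adjusted p = 0.0224), and EC GFP+ replicate 3 had its highest EC GFP+ value, as for the megakaryocyte sum. In EC, 7 of the 27 were higher and 3 were lower in GFP+ cells (6.96% and 6.51% of all tested genes), led by Lims2, a partner of integrin-linked kinase (1.34 ± 0.14, adjusted p = 0.000113). In HC, 4 were higher and 0 were lower in GFP+ cells (2.98% and 1.28% of all tested genes), and the largest difference was for the adhesion kinase gene Ptk2b (2.40 ± 0.25, adjusted p = 0.000318), which was also higher in EC GFP+ than in EC GFP- (1.11 ± 0.25, adjusted p = 0.0139).

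Of 14 tested cadherin partners, 4 were higher and 1 was lower in EC GFP+ than in EC GFP-, and 0 were higher and 6 were lower in HC GFP+ than in EC GFP+, where 13.5% and 14.3% of all tested genes were called in either direction. Ptprb encodes VE-PTP, the phosphatase that binds VE-cadherin, and averaged 65.1 ± 2.91 FPKM in EC GFP+ and 19.2 ± 5.68 FPKM in EC GFP- (SD, n = 3 each), a difference of 1.75 ± 0.17 (adjusted p = 9.47e-05). It was also higher in HC GFP+ (34.6 ± 3.96 FPKM) than in HC GFP- (17.6 ± 1.55 FPKM), by 0.94 ± 0.17 (adjusted p = 0.0102). Cdh5 did not differ in that way between the HC populations (0.09, adjusted p = 0.796). Ctnnb1 (beta-catenin) averaged 644 ± 5.13 FPKM in EC GFP+ and 510 ± 18.7 FPKM in EC GFP- (0.33 ± 0.07, adjusted p = 0.00894), and HC GFP+ was lower than EC GFP+ by -0.43 ± 0.07 (adjusted p = 0.00207). Jup (plakoglobin), the other catenin that joins classical cadherins to alpha-catenin, was lower in HC GFP+ than in EC GFP+ by -0.83 ± 0.12 (adjusted p = 0.00125).

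Of 15 tested genes of the wider cadherin superfamily, 4 were higher in EC GFP+ than in EC GFP- and 0 were lower (6.96% and 6.51% of all tested genes), and the higher ones included the protocadherin Pcdh7 (0.81 ± 0.13, adjusted p = 0.00238). In HC GFP+ against EC GFP+, 1 was higher and 3 were lower (8.21% and 6.09% of all tested genes). The higher gene was Clstn3, a calsyntenin (0.87 ± 0.19, adjusted p = 0.0118), and the lower genes were Dchs1 (-0.70), Pcdh12 (-0.71) and Pcdh1 (-0.96).

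**Figure D5:**
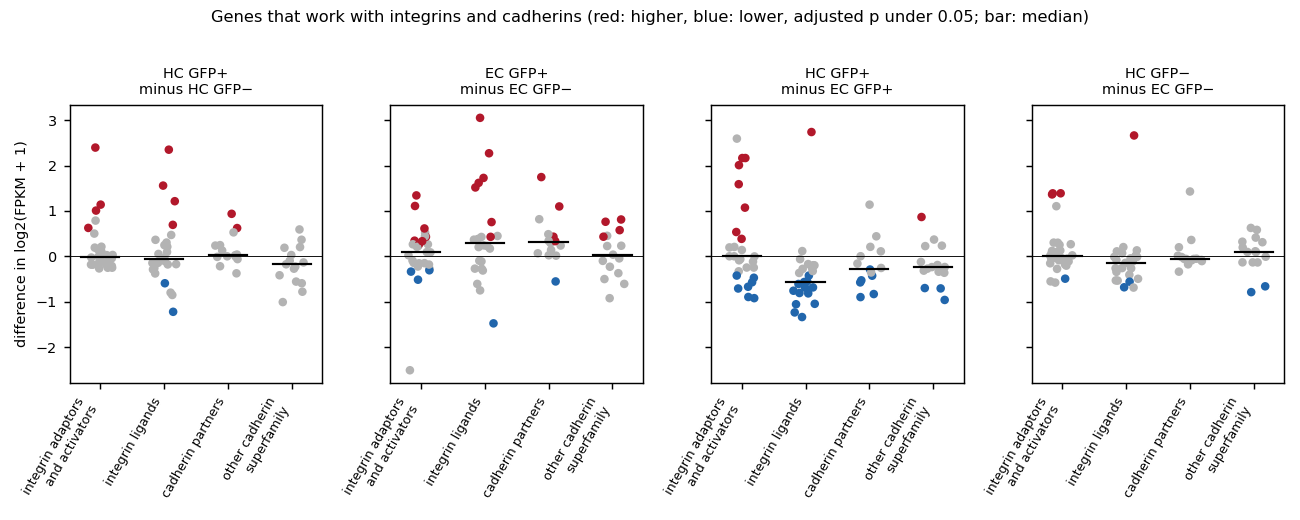
Difference in log2(FPKM + 1) of single genes (points) and list medians (bars) for integrin adaptors and activators (27 genes), integrin ligands (24), cadherin partners (14) and the wider cadherin superfamily (15) in the 4 comparisons of populations. Of the ligands 7 are called higher in EC GFP+ than in EC GFP-, and 14 are called lower in HC GFP+ than in EC GFP+.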

How the data were processed

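Per the labels' protocols, arterial cells of embryonic day 11.5 embryos were sorted into 4 populations, pooled into 3 samples each, and sequenced after poly(A) selection. The authors deposited one table of FPKM values, by gene symbol. Tools named in the submitters' processing notes are Cufflinks, featureCounts, edgeR and DESeq, and the build is mm9, but neither a role nor a version is given. For aligner, annotation and strand setting the entry is: not given in the sources used here. Deposited values were not multiples of whole reads (the fullest bin of ratios between libraries held 1.23 to 2.07% of low genes), so read depth is unknown and a count test was not possible. FPKM is relative within a library, and genes with near-identical copies can share reads.

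Of 33531 symbols, 11654 were at 0 in all 12 libraries, and 13278 had 1 FPKM or more in at least 3. These were tested on log2(FPKM + 1) with limma (version 3.58.1, R 4.3.3), 4 group means, 8 residual degrees of freedom and trended empirical Bayes moderation, for 5 comparisons. Folds on this scale understate the change of low genes. P-values were two-sided, had Benjamini-Hochberg adjustment across the 13278 genes, and measure the spread between pools. Tables and figures were made with Python 3.11.15, pandas 2.3.3 and matplotlib 3.10.9. The fit was tested on simulated data with 200 changed genes. Every integrin or cadherin gene past the filter was examined, and genes of the partner lists were named from those lowest in p in a list and comparison, of which not every one is described. Fermt3 and Vcam1 fell outside that rule and were chosen after their values were seen. The 48 genes, the 13 lists and the tests were chosen with earlier results of these data known.

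Promoter windows came from RefSeq tables of GRCm38.p6, matched by symbol. No coordinates of mm9 were used. Replicate numbers were not shown to pair the libraries: of 18 same-numbered pairs, 4 had a correlation of deviations over 0.1 (-0.08 to 0.27). Replicate 2 had the lowest mesenchyme sum and the lowest megakaryocyte sum in each of the 4 populations. The correlations do not show that pairing is absent. The 22 alternatives covered the pseudocount, filters, scaling, covariates, a replicate block, fits of the compared groups only and each library left out. Of these, 2 were chosen after seeing the data.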

Additional observations from a re-analysis of the deposited data

Results flagged for a closer look

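Fn1, the fibronectin gene that encodes the ligand of integrin alpha-5 beta-1, was singled out because the difference between its GFP effects in HC and EC passed limma's test, at -1.41 ± 0.21 on the log2 scale (adjusted p = 0.0147). GFP+ exceeded GFP- in EC, with 370 ± 24.3 and 120 ± 11.1 FPKM (SD, n = 3 each), while the HC groups overlapped, with 137 to 160 FPKM in HC GFP+ and 94.9 to 145 FPKM in HC GFP-. The 3 EC GFP+ libraries were higher than each of the other 9.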

How the results depend on the processing

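Of 25 calls for single integrin and cadherin genes, 15 held in each of the 22 alternatives in which they could be tested, 10 did not in at least 1, and 0 reversed. Among differences that were not called, Itga2b in EC GFP+ against EC GFP- (-0.06) became 0.12 with libraries scaled to an equal sum, 0.19 with the mesenchyme covariate, 0.34 with the megakaryocyte covariate, and 0.09, 0.25 and 0.24 without EC GFP+ replicate 1, EC GFP+ replicate 2 or EC GFP- replicate 3. Itga2b in HC GFP+ against EC GFP+ (-0.11) became 0.32 with 3 libraries left out together, and 0.04 and 0.36 without HC GFP+ replicate 1 or EC GFP+ replicate 3. Itga2b in HC GFP- against EC GFP- became 0.014 with the megakaryocyte covariate, and Cdh5 in HC GFP+ against HC GFP- became -0.13 with the mesenchyme covariate. With 1 library left out, Itga2b ranged between -0.54 and 0.25 in EC GFP+ against EC GFP- and between -0.42 and 0.36 in HC GFP+ against EC GFP+. The cause was not tested. The megakaryocyte covariate and the 3 libraries left out together (HC GFP+, EC GFP+ and EC GFP- replicate 3, high in macrophage or megakaryocyte markers) were chosen after seeing the data.

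Counts of called genes moved as follows. For HC GFP+ against HC GFP- the count of 1 became 2 with no filter, an equal sum, or either covariate, 0 with the stricter filter (mean FPKM of 5 or more), and 0 to 3 with 1 library left out. With a replicate block it became 4, with 3 higher and 1 lower. Of 12 libraries, 6 were closest to their own number, which does not settle whether the numbers pair the libraries. For EC GFP+ against EC GFP- the count of 8 became 5 with the stricter filter or 3 libraries left out together, 6 with no filter, the mesenchyme covariate or only the groups compared, 7 with the block or the megakaryocyte covariate, 10 with a pseudocount of 0.1, and 5 to 8 with 1 library left out. For HC GFP+ against EC GFP+ the count of 12 became 6 with the stricter filter, 11 with no filter or 3 libraries left out together, 13 with the block or quantile normalization, and 10 to 13 with 1 library left out. For HC GFP- against EC GFP- the count of 4 became 0 with no filter or the stricter filter, 1 with the megakaryocyte covariate, 2 with 3 libraries left out together or only the groups compared, 3 with the block, an equal sum or the mesenchyme covariate, 5 with a pseudocount of 0.1, and 0 to 4 with 1 library left out. For the difference of GFP effects it was 0 to 1 with 1 library left out. Under the stricter filter Itga4, Itgal, Itgam, Itgb2, Itgb4 and Cdh13 were not tested, while Itga1 in HC GFP- against EC GFP- (adjusted p = 0.051) and Cdh24 in EC GFP+ against EC GFP- (0.0609) stayed in and missed the threshold. Unknown depth limits what can be said of genes near 1 FPKM.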

Other observations

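Fermt1, the kindlin typical of epithelia, had 2.04 FPKM in HC GFP+ replicate 1 and at most 0.264 FPKM in the other 11 libraries. Cdh18 had 1.45 FPKM in EC GFP- replicate 3 and at most 0.505 FPKM elsewhere, and Cdh17 had 1.005 FPKM in HC GFP+ replicate 3 and at most 0.216 FPKM elsewhere. These 3 genes were picked after their values were seen, and each rests on 1 library.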
